A study of Mus musculus with 6 samples.

Results

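Axon guidance genes encode secreted and membrane-bound cues and the receptors that read them. The set described here holds every gene of the table whose symbol names a semaphorin, plexin, neuropilin, ephrin, Eph receptor, Slit, Robo, netrin, Unc5 receptor, neogenin, DCC, Boc, Cdon, Draxin or RGM. There were 60 such genes among the 12830 listed. The GENCODE annotation of the same genome build names 75 genes by this rule, and the other 15, among them Dcc, Robo2 and Ephb1, are not analysed here. The samples were cultured bone marrow stromal cells (BMSCs), primary cells from mice aged 8 weeks, taken for RNA sequencing on day 2 of osteogenic induction. The control group, called FF, held 3 libraries from Rras2f/f mice, in which Rras2 is floxed. The other group, called cKO, held 3 libraries from Prx1;Rras2f/f mice, which carry the same floxed gene with a Prx1 construct. The Prx1 promoter is active in limb mesenchyme, so blood-derived cells in such cultures are not its usual target. Nothing in the labels ties the libraries of a group to different animals. The p-values therefore measure no more than how these samples scatter, and that scatter may be technical.

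These genes were named for steering growing axons, but most of them also act between cells of other tissues. Semaphorins bind plexins, often with a neuropilin as co-receptor, and the cytoplasmic part of plexins acts as a GTPase-activating domain on small GTPases of the R-Ras and Rap kind. Ephrins stay on the cell surface and signal in both directions when they meet Eph receptors. Slits bind Robo receptors, and netrins bind DCC, neogenin and the Unc5 receptors. RGM proteins bind neogenin and are also co-receptors for bone morphogenetic proteins (BMPs), and Boc and Cdon are co-receptors for Hedgehog ligands. In bone, several of them carry messages between osteoclasts and osteoblasts: ephrin-B2 with EphB4, semaphorin 4D with plexin-B1, and semaphorin 3A and Slit3 are known examples.

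Rras2, which encodes the R-Ras subfamily GTPase TC21, was checked first. It had 49.7, 50.1 and 44.7 CPM (counts set relative to library size) in FF replicates 1, 2 and 3 and 26.7, 29.0 and 26.8 CPM in cKO replicates 1, 2 and 3. The groups did not overlap, and cKO was at 57.0% of FF (edgeR quasi-likelihood test, adjusted p = 1.08e-05). Counts summed to between 31934714 and 37561452 per library over the listed genes, and every pair of libraries within a group differed by more than sampling noise. All 9 markers of marrow stroma on a list were measured, at 12000 to 12600 CPM in sum in FF and 10300 to 11200 CPM in cKO. Within that sum Col1a1 fell from 8160 to 5430 CPM in the mean, while Cxcl12 rose from 3480 to 4840 CPM and Lepr from 33.6 to 46.4 CPM. Other cells left transcripts too. Summed over 5 osteoblast markers the libraries held 2810 to 2920 CPM in FF libraries and 1640 to 2250 CPM in cKO. Only Runx2 of these passed, lower in cKO (edgeR adjusted p = 0.0128). Sp7, Alpl, Bglap and Ibsp were lower without overlap but did not pass (edgeR adjusted p from 0.0886 to 0.158). The 5 macrophage markers gave 5000 to 5130 CPM in FF libraries and 5220 to 5430 CPM in cKO, and only Mrc1 passed, higher in cKO (edgeR adjusted p = 0.0486). The 3 measured of 5 plasma and B cell markers were higher, at 177 to 193 CPM in FF libraries and 289 to 351 CPM in cKO, and all 3 passed. The 4 adipocyte markers summed to 83.8 to 86.6 CPM in FF and 92.4 to 101 CPM in cKO. Only Adipoq of them passed, higher in cKO (log2 fold change 0.95, edgeR adjusted p = 4.56e-05). Pparg, Plin1 and Fabp4 had log2 fold changes of 0.02, 0.22 and 0.09 with overlapping groups (edgeR adjusted p from 0.502 to 0.935). The 5 measured of 6 endothelial markers summed to 28.9 to 42.0 CPM in FF libraries and 27.2 to 34.1 CPM in cKO, where the sums overlapped. All 5 had negative log2 fold changes, Emcn and Erg without overlap, and 0 of them passed. The part of these cell types in the results below was not tested, and in bulk RNA fewer cells of a type and less RNA per cell cannot be told apart.

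In cKO, 11 of the 60 axon guidance genes fell and 2 rose (edgeR's quasi-likelihood test with an adjusted p below 0.05, by Benjamini-Hochberg over all genes, which is what passing means below). The members called were 21.7% of the 60, where 4.84% of all tested genes were called. Falls were seen for 2.74% of all genes and rises for 2.1%. The set was chosen with earlier results of these data known, so its share of called genes is no independent support. Draxin, Epha2, Unc5c, Ntn4, Unc5b, Boc, Ephb2, Efnb1, Sema6d, Neo1 and Plxnb1 were the genes that fell, and Sema5a and Slit2 those that rose. By role, 7 of 26 receptors and co-receptors fell and 0 rose, and of 34 ligands 4 fell and 2 rose. The median log2 fold change of the 60 was -0.077, beside 0.000579 over all genes. Groups did not overlap for 17 members lower and 5 higher in cKO, against 11.2% of all genes lower, 11.3% higher and 22.5% in either direction.

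**Figure D1:**
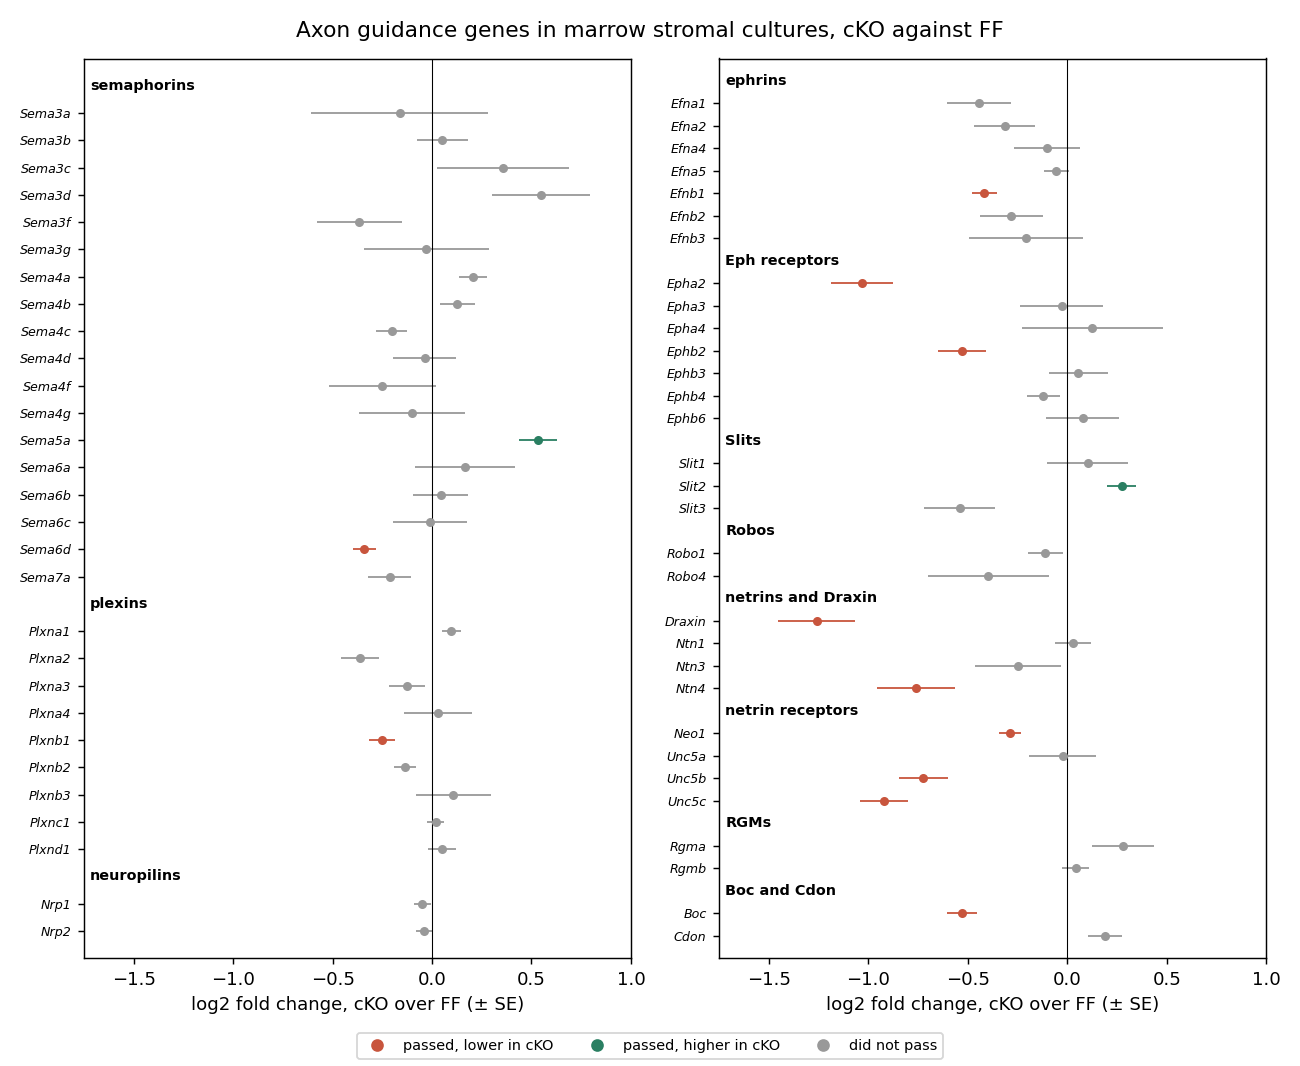
Log2 fold change of each of the 60 genes in cKO against FF, grouped by role, with bars for the standard error of the fit to 3 libraries a group; red and green points passed the test and grey ones did not. Draxin, Epha2 and Unc5c lie farthest to the left, while neuropilins and most plexins lie near 0.

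Promoter sequence was looked at for the genes with the largest falls and for the clearer rise, to show the letters at their start sites. RefSeq promoter windows of GRCm38.p6, from 250 bases before to 50 bases after a start site, were found for 50 of the 60 genes, in 64 windows. Their median GC content was 64.7% against 52.7% over all 32851 windows. GGCGCC, a GC box that SMAD proteins of the BMP pathway can bind, stood in 16 of the 64 windows, or 25%, and in 11.9% of all windows. TGANTCA, the AP-1 motif, was in 4.69% and 7.81%, and CCGGAAG, an ETS motif, in 3.12% and 8.86%. Both strands were searched and no matches overlapped in the windows shown. Among 11 windows, from 10 of the genes that fell, GGCGCC was in 3, or 27.3%, near the 25% of all member windows. These were the windows of Draxin, Neo1 and Unc5c. The matches begin 173, 28 and 222 bases before the start sites. A match is a description of letters, not a site in use, and the member windows were richer in GC. The windows below are printed in the gene's direction, 5′ to 3′, with GGCGCC in capitals. They are chr4:148130649-148130948 (minus strand), chr3:141465314-141465613 (plus strand), chr4:141300971-141301270 (plus strand) and chr15:32244563-32244862 (plus strand), in the order shown.
Draxin: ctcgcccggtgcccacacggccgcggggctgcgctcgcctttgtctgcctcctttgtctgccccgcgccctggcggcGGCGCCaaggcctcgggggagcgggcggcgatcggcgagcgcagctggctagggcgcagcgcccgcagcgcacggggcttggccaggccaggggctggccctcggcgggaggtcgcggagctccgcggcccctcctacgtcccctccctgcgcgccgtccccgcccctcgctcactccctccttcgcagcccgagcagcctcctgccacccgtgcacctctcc
Unc5c: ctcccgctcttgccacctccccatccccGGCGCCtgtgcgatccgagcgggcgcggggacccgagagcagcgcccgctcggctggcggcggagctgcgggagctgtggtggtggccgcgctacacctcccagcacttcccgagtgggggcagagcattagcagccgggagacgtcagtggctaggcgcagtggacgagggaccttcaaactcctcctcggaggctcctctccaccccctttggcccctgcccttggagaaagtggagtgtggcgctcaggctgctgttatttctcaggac
Epha2: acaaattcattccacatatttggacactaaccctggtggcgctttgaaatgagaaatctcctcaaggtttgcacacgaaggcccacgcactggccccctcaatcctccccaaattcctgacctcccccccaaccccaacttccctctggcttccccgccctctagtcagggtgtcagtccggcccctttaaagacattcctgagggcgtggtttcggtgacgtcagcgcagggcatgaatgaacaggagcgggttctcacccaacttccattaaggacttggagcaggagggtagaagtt
Sema5a: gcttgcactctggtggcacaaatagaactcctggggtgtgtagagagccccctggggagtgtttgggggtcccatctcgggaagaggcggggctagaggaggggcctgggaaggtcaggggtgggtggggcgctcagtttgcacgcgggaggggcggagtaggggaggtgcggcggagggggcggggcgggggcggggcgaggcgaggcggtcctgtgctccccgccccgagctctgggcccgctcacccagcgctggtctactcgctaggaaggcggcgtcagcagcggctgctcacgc
The windows of Draxin and Unc5c hold 1 match each, and the windows of Epha2 and Sema5a hold none of the 3 motifs.

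In the netrin system 5 of 8 measured genes fell, beside 2.74% of all genes, the largest fall of the set among them. Draxin, a secreted repellent that binds DCC and netrins and also antagonises Wnt signalling, had 13.7, 11.0 and 12.4 CPM in FF replicates 1, 2 and 3. In cKO replicates 1, 2 and 3 it had 6.98, 3.98 and 4.57 CPM. No cKO library reached the lowest FF library, and the highest of the cKO libraries was replicate 1. Its log2 fold change of -1.26 had a standard error of 0.194 (edgeR adjusted p = 0.00507), the largest fall of the 60 genes, and without cKO replicate 3 the adjusted p was 0.0523. Draxin (ENSMUSG00000029005) lies on chromosome 4 from 148098437 to 148130698 of mm10, on the minus strand.

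Netrin receptors fell alongside it. Unc5c, a repulsive netrin receptor with a death domain, went from 11.4, 14.3 and 12.1 CPM in the FF libraries to 6.93, 6.83 and 6.20 CPM in the cKO libraries. Each cKO library lay close to the others and far below FF, and the level was 52.8% of FF (log2 fold change -0.92, standard error 0.119, edgeR adjusted p = 0.000412). It passed in every alternative tried, each left-out library included. Unc5b, a related receptor known from blood vessels and macrophages as well, had 106, 113 and 97.5 CPM in FF libraries and 73.2, 64.9 and 54.0 CPM in cKO. All cKO libraries were below all FF libraries (log2 fold change -0.72, standard error 0.121, edgeR adjusted p = 0.0308). It no longer passed when FF replicate 1, FF replicate 2 or cKO replicate 2 was left out (adjusted p = 0.131, 0.0667 and 0.138). Neo1, or neogenin, a receptor for netrins and RGMs, was the most abundant receptor of the system and moved less. It had 164, 154 and 151 CPM in FF libraries and 137, 129 and 118 CPM in cKO, again without overlap (log2 fold change -0.29, standard error 0.0549, edgeR adjusted p = 0.00687), and passed in every alternative. Unc5a, the remaining measured receptor of the family, had 4.11 ± 0.449 CPM in FF libraries and 4.04 ± 0.424 CPM in cKO libraries (SD, n = 3). It did not pass (edgeR adjusted p = 0.965). In mm10, Unc5c (ENSMUSG00000059921) lies on chromosome 3 from 141465216 to 141834924 (plus strand) and Unc5b (ENSMUSG00000020099) lies on chromosome 10 from 60762593 to 60831581 (minus strand).

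The netrin ligands split. Ntn4, a netrin that binds laminins of basement membranes, had 4.92, 7.23 and 6.05 CPM in FF libraries and 4.42, 3.57 and 2.75 CPM in cKO. The highest cKO library lay just under the lowest FF library, and the log2 fold change of -0.76 had a standard error of 0.197 (edgeR adjusted p = 0.0400). Its call ended in 4 of the 6 fits that left out a library, and in limma-voom (adjusted p = 0.101). Ntn1, the founding netrin, had 14.4, 15.0 and 15.1 CPM in FF libraries and 14.2, 16.7 and 14.5 CPM in cKO. These values overlapped, and the log2 fold change was 0.03 (edgeR adjusted p = 0.918). Ntn3 had a log2 fold change of -0.25 and did not pass (edgeR adjusted p = 0.621). In mm10, Ntn4 (ENSMUSG00000020019) lies on chromosome 10 from 93640681 to 93747207 (plus strand) and Neo1 (ENSMUSG00000032340) lies on chromosome 9 from 58874687 to 59036441 (minus strand).

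Ephrins and their receptors were lower where they moved. All 7 measured ephrins had negative log2 fold changes, with a median of -0.281, and 1 of them passed, beside 4.84% of all genes. A negative value was found for 49.8% of all genes. Efnb1, which encodes ephrin-B1, a membrane ligand needed for normal skull and limb skeleton, had 140, 137 and 138 CPM in FF. Its cKO libraries had 116, 97.9 and 96.7 CPM. The FF libraries were nearly equal and all cKO libraries were below them (log2 fold change -0.42, standard error 0.0641, edgeR adjusted p = 0.00262), a call kept in every alternative. Efna1, a ligand of EphA2, had 5.41 ± 0.330 CPM in FF libraries and 3.99 ± 0.548 CPM in cKO libraries (SD, n = 3). Its groups did not overlap, but it did not pass (log2 fold change -0.44, edgeR adjusted p = 0.158). Efna2, Efnb2, Efnb3, Efna4 and Efna5 had log2 fold changes of -0.32, -0.28, -0.21, -0.10 and -0.06, all with overlapping groups. Efna4 turned to 0.04 without FF replicate 3. In mm10, Efnb1 (ENSMUSG00000031217) lies on chromosome X from 99136130 to 99148991 (plus strand).

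Of the 7 measured Eph receptors, Epha2 and Ephb2 fell, beside 2.74% of all genes. Epha2, a receptor tyrosine kinase for ephrin-A ligands, had 30.8, 27.3 and 31.4 CPM in FF libraries and 18.5, 12.7 and 12.5 CPM in cKO. Replicate 1 of cKO stood between the other cKO libraries and FF. The level of Epha2 in cKO was 49.0% of FF (log2 fold change -1.03, standard error 0.156, edgeR adjusted p = 0.0113), and the adjusted p was 0.0509 without FF replicate 1. Ephb2, a receptor for ephrin-B ligands, had 16.1, 14.2 and 13.1 CPM in FF libraries and 11.6, 9.62 and 8.84 CPM in cKO. The groups did not overlap in counts (log2 fold change -0.53, standard error 0.119, edgeR adjusted p = 0.0197). The deposited FPKM values, which divide counts by gene length and library size, did not follow: 1.83, 1.21 and 1.75 in FF and 1.62, 1.52 and 1.39 in cKO. The FF and cKO ranges overlapped there, so the fall of Ephb2 rests on the counts. For the other 59 genes the log2 ratio of group means differed between FPKM and CPM by -0.10 to 0.05. Ephb2 also failed to pass when FF replicate 1, FF replicate 2, cKO replicate 2 or cKO replicate 3 was left out (adjusted p = 0.0857, 0.0747, 0.0961 and 0.0781), and in limma-voom (0.0560). Ephb4, the partner of ephrin-B2 in bone, had 25.7 ± 1.54 CPM in FF libraries and 23.6 ± 2.15 CPM in cKO libraries (SD, n = 3) and did not pass (edgeR adjusted p = 0.503). Epha3, Epha4, Ephb3 and Ephb6 had log2 fold changes from -0.03 to 0.13 and overlapping groups. In mm10, Epha2 (ENSMUSG00000006445) lies on chromosome 4 from 141301240 to 141329384 (plus strand) and Ephb2 (ENSMUSG00000028664) lies on chromosome 4 from 136647539 to 136835988 (minus strand).

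Semaphorins, the largest family here with 18 measured genes, moved in both directions. There was 1 rise and 1 fall, beside 2.1% and 2.74% of all genes. Sema5a, a membrane semaphorin with thrombospondin repeats, had 34.6, 32.3 and 37.1 CPM in FF libraries and 42.4, 55.5 and 52.4 CPM in cKO. Every cKO library was above every FF library, with replicate 1 the nearest to FF (log2 fold change 0.53, standard error 0.0959, edgeR adjusted p = 0.00949). The adjusted p was 0.0627 without FF replicate 2 and 0.0606 without cKO replicate 3. Sema6d, a membrane semaphorin that binds plexin-A1, had 52.9, 55.1 and 52.5 CPM in FF libraries and 42.8, 42.8 and 41.2 CPM in cKO. Both groups were tight and well apart (log2 fold change -0.34, standard error 0.0570, edgeR adjusted p = 0.00280), and it passed in every alternative. Within each library the FPKM of Sema5a was 0.363, 0.321 and 0.387 of that of Sema6d in FF and 0.525, 0.749 and 0.688 of it in cKO. This ratio does not depend on library scaling. Its groups had to lie apart, as Sema5a was higher and Sema6d lower in cKO without overlap, so it is no further support. In mm10, Sema5a (ENSMUSG00000022231) lies on chromosome 15 from 32244810 to 32696341 (plus strand) and Sema6d (ENSMUSG00000027200) lies on chromosome 2 from 124089969 to 124667770 (plus strand).

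The other 16 semaphorins did not pass. Sema4d, the most abundant of the family and known from lymphocytes and osteoclasts, had 264, 193 and 199 CPM in FF libraries and 228, 191 and 220 CPM in cKO. FF replicate 1 was the highest library, and the log2 fold change of -0.04 became 0.12 without it and 0.04 without cKO replicate 2. Sema4a, an immune semaphorin, had 38.2 ± 0.503 CPM in FF libraries and 44.1 ± 4.50 CPM in cKO libraries (SD, n = 3; edgeR adjusted p = 0.144), with cKO above FF in all libraries. Sema3d and Sema3f, secreted semaphorins that use neuropilins, had log2 fold changes of 0.55 and -0.36 without overlap, and adjusted p-values of 0.260 and 0.417. Sema3a, known for protecting bone, was at the limit of the table, with 11, 52 and 39 counts in FF and 24, 37 and 31 counts in cKO. Its log2 fold change of -0.16 had a standard error of 0.444, and the FF libraries scattered widely. The remaining 11 semaphorins had log2 fold changes between -0.25 and 0.36.

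Plexins ranged from Plxnb2, the highest level of the set, down to Plxna4 and Plxnb3 below 1 FPKM. Where 2.74% of all genes fell, 1 of 9 measured plexins did, Plxnb1. It encodes plexin-B1, the receptor for semaphorin 4D on osteoblasts, and had 57.3, 58.2 and 52.1 CPM in FF libraries and 49.8, 46.7 and 44.3 CPM in cKO. The groups were apart by little (log2 fold change -0.25, standard error 0.0650, edgeR adjusted p = 0.0394). Plxnb1 failed to pass when FF replicate 1, FF replicate 2, cKO replicate 2 or cKO replicate 3 was left out (adjusted p = 0.132, 0.193, 0.125 and 0.155), and in limma-voom (0.0745). An antisense gene overlaps exons of Plxnb1, and another overlaps Unc5c. The library kit was stranded, but the strand setting of the counting is not given in the sources used here. Whether the counts keep reads of such pairs apart is therefore not known. Plxna2, a receptor for class 6 semaphorins, had 132, 132 and 147 CPM in FF libraries and 122, 102 and 95.2 CPM in cKO. These did not overlap, yet it did not pass (log2 fold change -0.36, edgeR adjusted p = 0.0978). Plxna2 passed in DESeq2 (adjusted p = 0.000201) and without cKO replicate 1 (6.45e-05). Plxnb2, the most abundant member, had 783, 772 and 771 CPM in FF libraries and 773, 653 and 693 CPM in cKO libraries (edgeR adjusted p = 0.220), and 0.00571 without cKO replicate 1. Plxna1, Plxnc1 and Plxnd1 had log2 fold changes of 0.10, 0.02 and 0.05, and that of Plxnd1 was -0.05 without cKO replicate 1. Plxna3, Plxna4 and Plxnb3 had log2 fold changes from -0.12 to 0.11 and overlapping groups. In mm10, Plxnb1 (ENSMUSG00000053646) lies on chromosome 9 from 109095389 to 109119917 (plus strand).

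Neuropilins, co-receptors shared by class 3 semaphorins and VEGF, were abundant and nearly level. Nrp1 had 284, 274 and 261 CPM in FF libraries and 266, 262 and 263 CPM in cKO libraries (log2 fold change -0.05, standard error 0.0436, edgeR adjusted p = 0.625). Nrp2 had 636, 630 and 634 CPM in FF libraries and 628, 617 and 604 CPM in cKO. Its libraries did not overlap, but its log2 fold change of -0.04 had a standard error of 0.0418 (edgeR adjusted p = 0.703).

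Slit ligands differed from each other. Slit2 had 24.3, 24.9 and 27.6 CPM in FF libraries and 29.9, 32.7 and 30.2 CPM in cKO, with every cKO library higher. It rose by a log2 fold change of 0.27 with a standard error of 0.0731, close to the threshold (edgeR adjusted p = 0.0464). This call ended with upper-quartile scaling, with library totals alone, in limma-voom and in 4 of the 6 fits that left out a library (adjusted p from 0.0506 to 0.219). Slit3, a Slit made by bone cells, had 47.5, 45.5 and 41.1 CPM in FF libraries and 39.2, 26.8 and 26.3 CPM in cKO. Replicates 2 and 3 of cKO were far below FF and replicate 1 just below it. Slit3 did not pass (log2 fold change -0.54, standard error 0.179, edgeR adjusted p = 0.215). With cKO replicate 1 left out its log2 fold change was -0.75 (adjusted p = 8.66e-06). The FPKM ratio of Slit2 to Slit3 was 0.269, 0.311 and 0.353 in FF and 0.402, 0.640 and 0.627 in cKO. Slit3 was thus above Slit2 per length in all libraries. As Slit2 was higher and Slit3 lower in cKO, each without overlap, this ratio had to separate the groups and adds no support. Slit1, the least abundant Slit, was at 0.480 FPKM in FF and did not pass. Robo1, the Slit receptor measured at the higher level, had 17.6 ± 0.346 CPM in FF libraries and 16.3 ± 1.45 CPM in cKO libraries (SD, n = 3; edgeR adjusted p = 0.582). Robo4, the endothelial member, was at most 2.37 CPM and did not pass (edgeR adjusted p = 0.566). In mm10, Slit2 (ENSMUSG00000031558) lies on chromosome 5 from 47983138 to 48307733 (plus strand).

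Boc and Cdon, paired Hedgehog co-receptors, did not move together. Boc had 28.5, 27.7 and 30.4 CPM in FF libraries and 21.4, 19.4 and 19.1 CPM in cKO. All cKO libraries were well below FF (log2 fold change -0.53, standard error 0.0758, edgeR adjusted p = 0.000860), and the call was kept in every alternative. Cdon had 16.9, 16.8 and 18.2 CPM in FF libraries and 18.1, 20.2 and 20.8 CPM in cKO, which overlapped (log2 fold change 0.19, edgeR adjusted p = 0.258). The RGM genes had positive values that did not pass. Rgma stood 0.28 higher on the log2 scale (edgeR adjusted p = 0.394), and Rgmb, the more abundant of the pair, had 33.8 ± 1.42 CPM in FF libraries and 34.8 ± 1.68 CPM in cKO libraries (SD, n = 3; edgeR adjusted p = 0.811). In mm10, Boc (ENSMUSG00000022687) lies on chromosome 16 from 44485049 to 44558897 (minus strand).

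**Figure D2:**
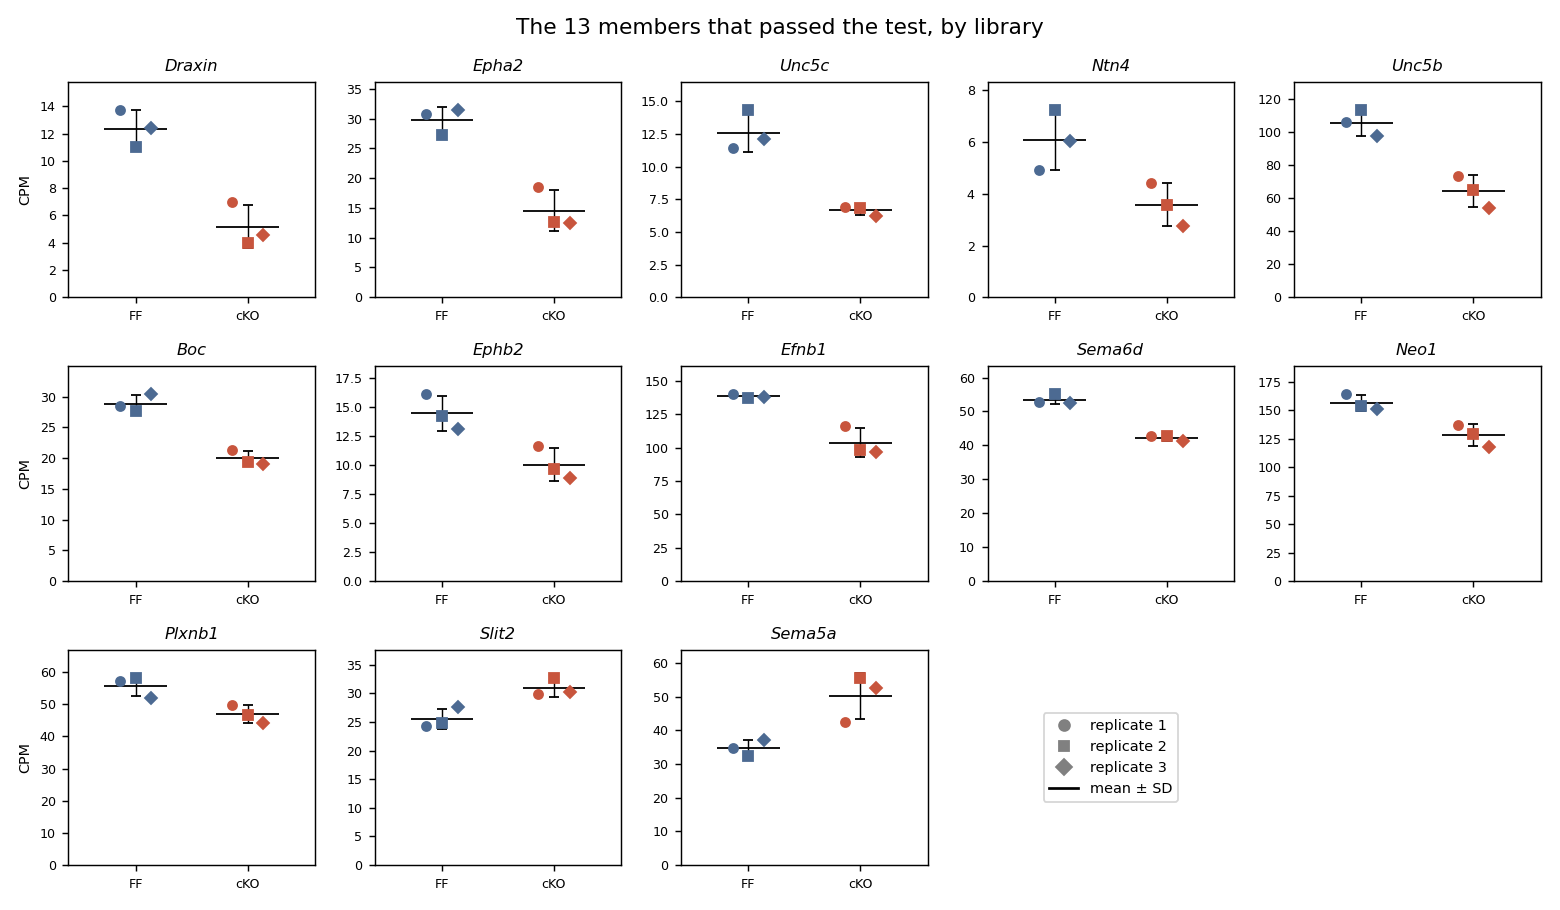
CPM of the 13 genes that passed the test in each library, on axes that start at 0; shapes mark the replicate, black lines the mean and bars the SD of 3 libraries. Groups do not overlap in any panel, and cKO replicate 1, the circle, is the cKO library nearest to FF for nearly every gene.

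Among the cKO libraries, replicate 1 lay nearest to FF. For all 11 genes that fell, the library with the highest value in cKO was replicate 1, counting a value nearly shared with replicate 2 for Sema6d. The share of all falling genes with this trait was not counted, and genes read in the same libraries are not independent observations. The median log2 difference of the 11 genes from the FF mean was -0.432 in cKO replicate 1, -0.583 in replicate 2 and -0.705 in replicate 3. Summed osteoblast markers, of which only Runx2 passed, followed the same order, with 2250, 1960 and 1640 CPM in cKO replicates 1, 2 and 3. Within that list Ibsp did not, with 751, 765 and 596 CPM. The order was not particular to osteoblast markers. Summed marrow stroma markers had 11200, 11000 and 10300 CPM. Plasma and B cell markers had 351, 304 and 289 CPM, and endothelial markers 34.1, 30.9 and 27.2 CPM. Macrophage sums (5430, 5220 and 5340 CPM) and adipocyte sums (100, 92.4 and 101 CPM) did not follow that order. Rras2 did not follow it either, with 26.7, 29.0 and 26.8 CPM in these replicates. Without cKO replicate 1, 16 members passed, 14 lower and 2 higher, beside 9.09% of all genes (4.92% lower and 4.17% higher). These were all 13 named above with Plxna2, Plxnb2 and Slit3 added. Leaving out FF replicate 2 or cKO replicate 3 instead left 7 members, all lower, beside 2.09% and 2.66% of all genes. Leaving out FF replicate 1, FF replicate 3 or cKO replicate 2 left 8, 12 and 8 members, beside 2.89%, 2.95% and 2.53% of all genes. With all libraries DESeq2 called 14 members beside 6.61% of all genes, limma-voom 9 beside 3.38%, and the fit with the replicate number as a block 12 beside 5.21%. Under the other scalings and filters 12 or 13 members were called, beside 4.87% of all genes (RLE size factors), 4.69% (upper quartile), 4.72% (library totals), 4.84% (no filter) and 4.85% (a mean of at least 1 CPM). Whether the content of osteoblasts or other cells in a culture sets the level of these genes was not tested.

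**Figure D3:**
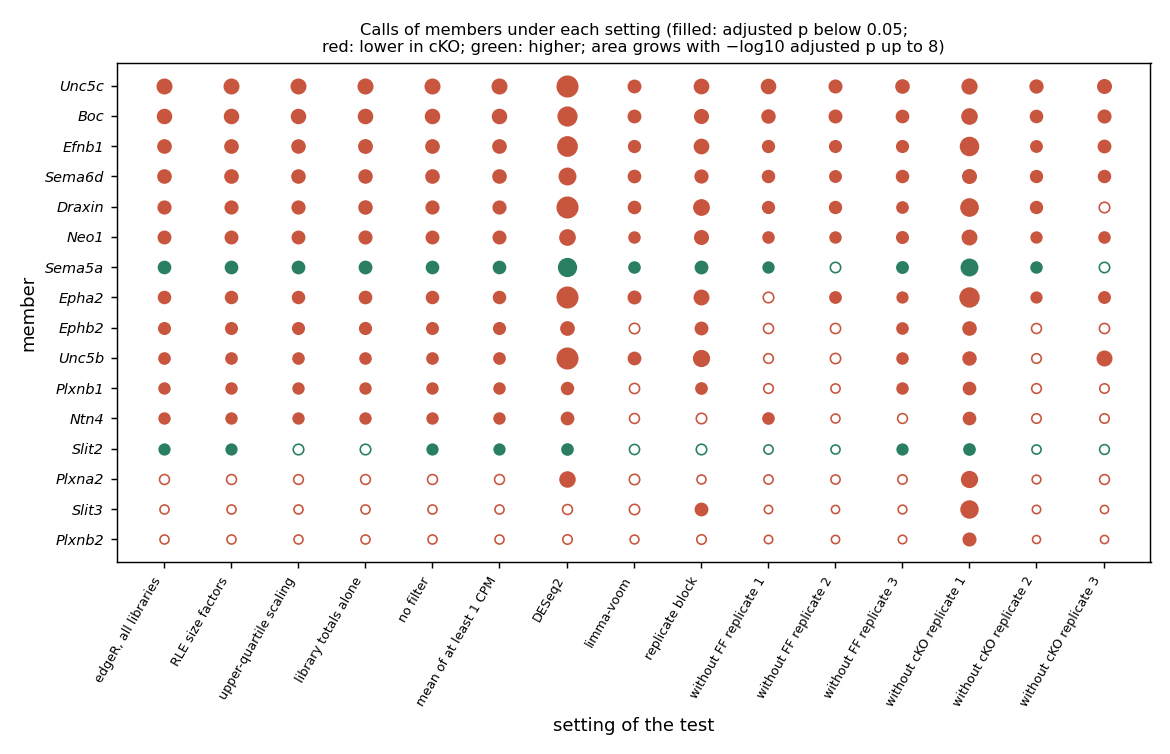
Calls of the 16 genes that passed in at least 1 setting, with genes on the vertical axis and settings on the horizontal axis; filled circles mark an adjusted p below 0.05, red is lower and green higher in cKO. Unc5c, Boc, Efnb1, Sema6d and Neo1 are filled throughout, while Slit2, Ntn4, Plxnb1 and Ephb2 are open in several settings.

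Levels were compared between genes per length, as FPKM. The 60 genes ranged from 0.140 to 104 FPKM in their mean over all libraries, with a median of 2.53, and 12 of them lay above the median of all listed genes, 9.45 FPKM. Plxnb2 led with 109 ± 1.10 FPKM in FF (SD, n = 3), followed by Nrp2 with 89.6 ± 1.16 and Nrp1 with 69.4 ± 2.15. Plxnd1, a receptor for semaphorin 3E, had 51.1 ± 1.66 FPKM. Next came Sema4d with 45.7 ± 7.40 FPKM, which overlapped Plxnd1 in its highest library, and Efnb1 with 38.9 ± 0.287 FPKM. Among the netrin receptors the order in FF was Neo1, Unc5b, Unc5c and Unc5a, at 24.9, 16.5, 1.27 and 0.938 FPKM. No neighbours in that order overlapped in FF. In cKO Neo1 and Unc5b were at 20.0 and 9.92 FPKM, and Unc5c, at 0.639 FPKM, was under Unc5a, at 0.954 FPKM. Epha2 led the Eph receptors in FF with 6.97 ± 0.477 FPKM, above Ephb4 with 5.43 ± 0.226. In cKO Epha2 had 3.39 ± 0.810 FPKM, below the 4.95 ± 0.472 of Ephb4 (SD, n = 3). Draxin was close to Ntn1 in FF, at 2.18 and 2.45 FPKM with overlapping ranges, and had 0.902 FPKM in cKO beside 2.45 for Ntn1.

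**Figure D4:**
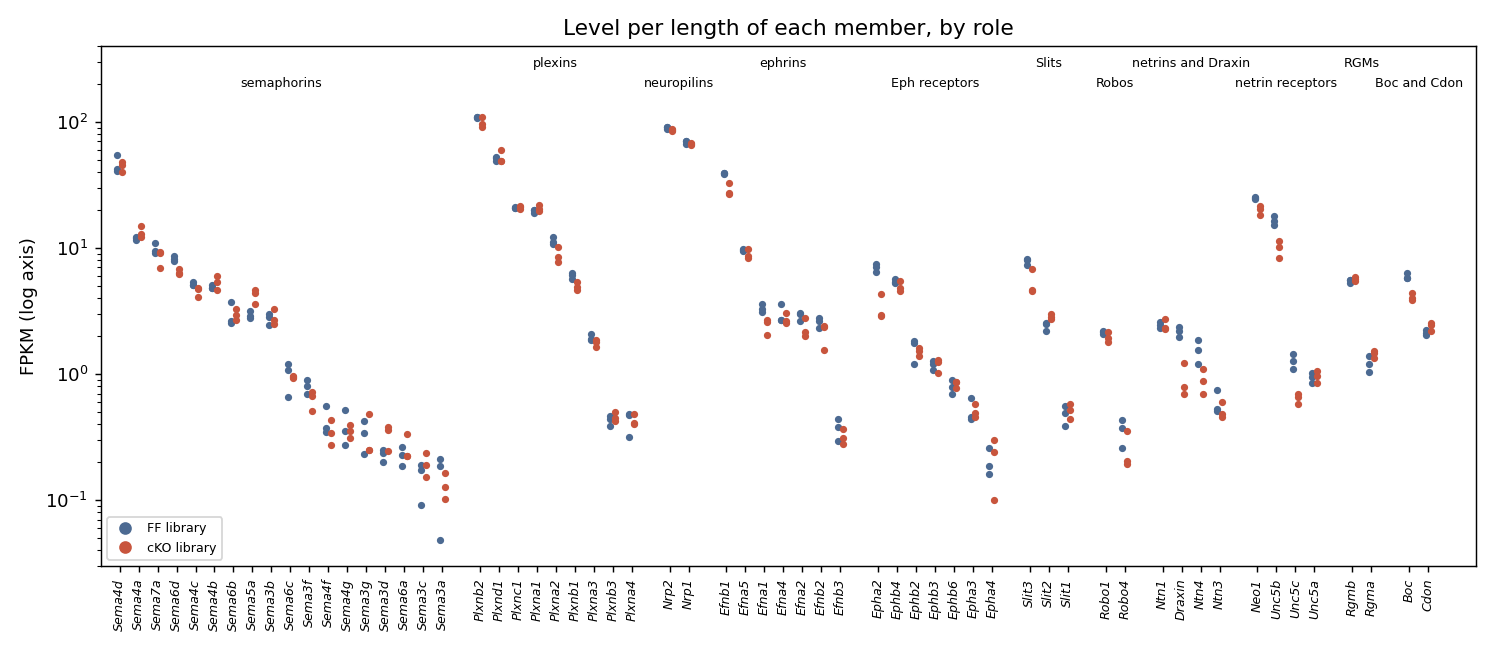
FPKM of each gene in each library on a log axis, ordered within its role by the FF mean; blue points are the 3 FF libraries and red points the 3 cKO libraries. Plxnb2, Nrp2, Nrp1, Plxnd1, Sema4d and Efnb1 are the most abundant members, and many semaphorins lie below 1 FPKM.

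Genes that act inside the cell below these receptors were described from a separate list, chosen with earlier results of these data known. Its share of called genes is therefore no independent support. Of 42 measured effectors 6 fell and 0 rose, or 14.3% called beside 4.84% of all genes (2.74% lower), and their median log2 fold change was -0.0622. Fyn, a Src-family kinase used by Eph, netrin and plexin receptors, had 57.8, 59.5 and 59.1 CPM in FF libraries and 44.6, 42.8 and 42.1 CPM in cKO. These groups were far apart (log2 fold change -0.44, standard error 0.0560, edgeR adjusted p = 0.000344). Mical2, an oxidase that takes actin filaments apart, and Rnd3, a GTPase that lowers contractility, fell by 0.25 and 0.23 on the log2 scale. Chn1, a Rac inhibitor that acts below EphA4, fell by 0.79. Without FF replicate 2 these 3 had adjusted p-values of 0.0614, 0.0791 and 0.0682. Srgap1, a GTPase-activating protein recruited by Robo1, and Tiam2, a Rac activator, complete the 6 and were named after their values were seen. Srgap1 fell by 0.83 on the log2 scale, with an adjusted p of 0.0124 that was 0.0623 without FF replicate 3 and 0.0536 without cKO replicate 3. Tiam2 had -0.31 and lost its call in 5 of the 6 fits that left out a library.

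Of 30 measured co-receptors and modulators 1 fell and 1 rose, 6.67% of them beside 4.84% of all genes. Vegfa, a ligand that shares neuropilins with semaphorins, had 165, 163 and 152 CPM in FF libraries and 121, 108 and 102 CPM in cKO libraries (log2 fold change -0.53, edgeR adjusted p = 0.000323). Vegfc, which uses neuropilin-2, rose by 0.27 on the log2 scale (edgeR adjusted p = 0.0232), and its adjusted p was 0.110, 0.0757 and 0.112 with FF replicate 1, FF replicate 2 and cKO replicate 2 left out in turn. In the Hedgehog reception list 1 of 7 fell, beside 2.74% of all genes, namely Gas1, a co-receptor that works with Boc and Cdon. It had 126, 107 and 113 CPM in FF libraries and 83.1, 74.8 and 63.8 CPM in cKO libraries (log2 fold change -0.64, edgeR adjusted p = 0.0271), and adjusted p-values of 0.0728 and 0.132 without FF replicate 3 and cKO replicate 2. Of 5 BMP receptors, partners of the RGMs, 1 rose, beside 2.1% of all genes. This was Acvr2a, by 0.41 on the log2 scale (edgeR adjusted p = 0.0107). The other 4 had log2 fold changes from -0.07 to 0.03 and overlapping groups. Acvr2a failed to pass when replicate 2 or 3 of either group was left out (adjusted p from 0.0574 to 0.0593). Among the 11 GTPases of the Ras, R-Ras and Rap kinds, which plexins act on in part, only Rras2, the floxed gene, passed. That call was 9.09% of the list, beside 4.84% of all genes. Rras stood 0.15 higher on the log2 scale (edgeR adjusted p = 0.153). The table's own KEGG label for axon guidance, looked up after the results were seen, marked 150 genes and 54 of the 60 members. Of the 96 others, 5 were called, or 5.21%, near the 4.84% of all genes.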

How the data were processed

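A stranded mRNA kit turned total RNA into sequencing libraries, per the labels' protocols. The authors deposited a table of 12830 genes on genome build mm10, per the submitters' processing notes, with raw counts and FPKM values for each of 6 libraries, per the file headers. The deposited table also gave log2 fold changes, the mean of log2(FPKM + 1), p-values and adjusted p-values, not used for the tests here. For the aligner, counter and strand setting no name was given in the sources used here. The gene with the lowest mean had 22.3 counts, so genes below that are not analysed here.

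Counts were tested over all genes with edgeR 4.0.16 in R 4.3.3 (TMM scaling, filterByExpr, robust quasi-likelihood F test, no covariates). The filter removed 0 genes, so the alternative with no filter repeats the same fit. Standard errors were derived from the fold change and F (its size over the root of F), and CPM values use TMM library sizes. The scripts were tested on simulated data. Alternatives were other scalings and filters, DESeq2 1.42.0, limma-voom (limma 3.58.1), the replicate number as a block and each library left out. Positions come from GENCODE M21 and promoter windows from RefSeq. Members and lists were chosen with earlier results of these data known. The genes named in full were those that passed, those that passed in an alternative, the 2 highest in FPKM per role, and those without overlap and a log2 fold change of at least 0.3 in size. In other lists up to 4 called genes were named by smallest p.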

Additional observations from a re-analysis of the deposited data

How the results depend on the processing

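Leaving out a library moved the number of genes called over the whole table from 621 to between 268 and 1166, that of the axon guidance genes from 13 to between 7 and 16, and that of the other pathway lists from 11 to between 5 and 20. DESeq2 called 17 genes of the other lists, and 14 of the axon guidance genes. The other scalings and filters gave 12 or 13 axon guidance genes and limma-voom 9. Of the 13 genes called, 5 kept their call in all 14 alternatives and 8 lost it in at least 1, while 3 others passed in at least 1. The alternative with no filter repeated the test itself, so it could not change a call. No called gene changed sign. Among the genes followed one by one through the alternatives, which were not all 60, signs turned in some fits without a library for 5 genes near 0: the log2 fold change ranged from -0.12 to 0.12 for Sema4d, from -0.05 to 0.10 for Plxnd1, from -0.19 to 0.04 for Efna4, from -0.05 to 0.07 for Ntn1 and from -0.10 to 0.06 for Unc5a. The cause was not tested. For libraries of equal number in FF and cKO, deviations from the group mean had correlations of -0.036, 0.091 and -0.099 for replicates 1, 2 and 3. Those of unequal number had correlations from -0.188 to 0.207. With 3 libraries a group, such values cannot show whether the numbers pair the libraries. With the replicate number as a block 669 genes and 12 axon guidance genes were called, with Slit3 added (adjusted p = 0.00742) and Ntn4 and Slit2 lost (0.0545 and 0.0534), and 15 genes of the other lists. Sema3a had 11 to 52 counts per library, and what part of its error comes from depth was not tested.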
